A study of Mus musculus with 37 samples.

Results

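The genes described here are 10 genes that write, read out, remove or protect DNA methylation in the mouse: Dnmt1, Dnmt3a, Dnmt3b, Dnmt3l, Uhrf1, Tet1, Tet2, Tet3, Dppa3 and Zfp57. They were taken by symbol from 2 deposited expression tables, and all 10 were found among 55401 genes. The study asked what the loss of the histone H2A deubiquitinase BAP1 from the oocyte does to the transcriptome. Control females carried Bap1 flox/flox without Cre, and knockout females carried Gdf9-iCre with Bap1 flox/flox, so both groups had the floxed allele and recombination was driven by the promoter of an oocyte gene. Total RNA was sequenced from fully grown oocytes, MII eggs, and embryos at the late 1-cell, the early 2-cell and the late 2-cell stage (2 control and 3 knockout libraries per stage, with 3 controls at the early 2-cell stage), the embryos being fathered by wild-type B6 males. Poly(A) RNA was sequenced from the epiblast, visceral endoderm and extraembryonic ectoderm of embryonic day 6.5 embryos fathered by PWK males, with 2 libraries per genotype and lineage except for 1 control library of extraembryonic ectoderm. A knockout embryo lacks the maternal allele and inherits an intact paternal one. The labels give no age for the females and do not say that replicates came from separate animals or how many cells a library holds, so p-values measure the spread between these libraries.

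DNA methylation is copied after replication by DNMT1, which UHRF1 brings to hemimethylated CpG sites. New methylation is laid down by DNMT3A and DNMT3B, and in growing oocytes mainly by DNMT3A with its catalytically inactive cofactor DNMT3L. TET enzymes oxidise methylcytosine, TET3 being the form stored in the egg, while DPPA3 (also called STELLA) keeps UHRF1 out of the oocyte nucleus and shields the maternal genome from TET3, and the zinc-finger protein ZFP57 binds methylated imprinted regions and keeps them methylated while the rest of the genome loses the mark.

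In controls most of these genes were abundant in oocytes and fell after fertilization, and Tet1 alone among the 10 rose at the late 2-cell stage. Up to the late 1-cell stage the knockout differed by the test in Tet1, which was scarce in controls and scarcer in knockouts, and by at most 0.54 on the log2 scale in Zfp57, Tet3, Tet2 and Dnmt3b. More genes differed in late 2-cell embryos, where Zfp57, Uhrf1, Dnmt3l, Dnmt3a, Tet3 and Dnmt3b were all higher in knockouts than in controls. Among all genes 34.2% differed there, 17.0% being higher, against 13.5% that differed in early 2-cell embryos. Of these late 2-cell differences, those of Zfp57, Uhrf1 and Dnmt3l alone held under every alternative setting. At embryonic day 6.5 none of the 10 differed between genotypes by the test, while the lineages themselves differed in the DNMT3 genes.

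The promoters of 4 of the genes that were higher in knockout than in control late 2-cell embryos are shown because they differ widely in CpG content, the substrate on which these genes' own products act. Each is the 250 bases before 1 of the transcription starts given by RefSeq on GRCm38.p6, read 5′ to 3′ on the gene's strand (the plus strand for all 4), with CG in capitals and no base in an annotated exon. Of the 10 genes, 9 matched an entry. RefSeq lists further starts for all 4 genes, whose windows hold 10 CG for Uhrf1, 40 and 15 for Dnmt3a, 7 and 3 for Zfp57, and 5 and 3 for Dnmt3l. Which start is used at these stages was not tested.
Zfp57 at chr17:37000913-37001162: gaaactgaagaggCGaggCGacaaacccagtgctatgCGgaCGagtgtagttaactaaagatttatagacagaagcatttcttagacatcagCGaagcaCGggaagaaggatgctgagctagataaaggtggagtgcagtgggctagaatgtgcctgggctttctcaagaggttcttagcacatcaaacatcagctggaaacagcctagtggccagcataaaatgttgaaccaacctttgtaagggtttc
Uhrf1 at chr17:56304063-56304312: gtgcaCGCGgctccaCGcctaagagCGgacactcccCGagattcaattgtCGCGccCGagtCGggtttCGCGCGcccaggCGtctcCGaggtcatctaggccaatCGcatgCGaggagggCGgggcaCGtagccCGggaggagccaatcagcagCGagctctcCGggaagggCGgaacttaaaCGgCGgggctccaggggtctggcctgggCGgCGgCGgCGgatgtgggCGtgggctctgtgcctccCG
Dnmt3l at chr10:78049592-78049841: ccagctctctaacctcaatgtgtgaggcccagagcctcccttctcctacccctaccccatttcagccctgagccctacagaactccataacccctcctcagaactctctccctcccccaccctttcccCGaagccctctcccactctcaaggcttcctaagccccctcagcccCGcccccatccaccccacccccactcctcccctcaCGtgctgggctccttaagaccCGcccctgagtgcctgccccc
Dnmt3a at chr12:3806730-3806979: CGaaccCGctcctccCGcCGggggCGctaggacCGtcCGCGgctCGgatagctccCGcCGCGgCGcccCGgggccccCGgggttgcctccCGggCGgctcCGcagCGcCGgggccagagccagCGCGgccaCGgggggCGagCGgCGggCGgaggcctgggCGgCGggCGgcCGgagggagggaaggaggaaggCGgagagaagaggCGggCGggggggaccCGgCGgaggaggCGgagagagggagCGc
The motif CG, which reads the same on both strands, occurs 6 times in the Zfp57 window, 4 times in that of Dnmt3l, 30 times in that of Uhrf1 and 38 times in that of Dnmt3a. Over 32851 promoter windows of this length the median was 6. Of those windows 50.4% held at least as many CG as Zfp57, 62.2% as many as Dnmt3l, 5.94% as many as Uhrf1 and 1.88% as many as Dnmt3a. The Zfp57 window thus held the median number, that of Dnmt3l fewer, and those of Uhrf1 and Dnmt3a more. Since the 4 genes were picked for this range, it does not describe the 6 genes called in late 2-cell embryos as a group.

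Values are FPKM (fragment numbers scaled to transcript length and to the library's total), and depth is unknown because the tables hold no counts. Bap1 was lower in every knockout library than in every control library at each of the 5 early stages, with means of 22.8 against 4.41 FPKM in oocytes and 22.7 against 10.5 FPKM in late 2-cell embryos; at embryonic day 6.5 it was not lower in the knockouts. Column totals ran from 300667.9 to 430783.6 FPKM in the early table and from 593705.0 to 704521.6 in the late table. The single gene Gm23935 took 5.98% to 23.1% of the early totals, with 20.2% to 23.1% in late 2-cell controls and 15.3% to 17.3% in late 2-cell knockouts. The 8 oocyte markers were all detected at every early stage, and at day 6.5 each lineage held the highest summed level of its own 6 markers. Of the 10 cumulus and granulosa markers, 8 or 9 stayed under 1 FPKM at each early stage in each genotype. In bulk samples fewer cells and less RNA per cell cannot be told apart.

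Differences are given as log2(FPKM + 1) in knockout minus control, with the standard error, from 1 limma fit over 15184 genes in the 26 early libraries; this scale understates changes of genes near or under 1 FPKM. Calls are adjusted p under 0.05 (Benjamini-Hochberg over all genes tested). Groups without overlap were common among all genes at the early stages. The share with every knockout above every control ran from 14.6% in early 2-cell to 29.1% in late 2-cell embryos. The share with every knockout below every control ran from 15.1% in early 2-cell to 27.7% in late 2-cell embryos. In oocytes 1 of the 10 genes was called, against 13.9% of all genes. In MII eggs 4 were called, against 16.8%, and in late 1-cell embryos 3, against 17.6%. In early 2-cell embryos 3 were called, all higher, against 13.5% called and 6.2% called higher among all genes. In late 2-cell embryos 6 of 10 were called, all higher, against 34.2% called and 17.0% called higher among all genes. The median difference over the 10 genes went from 0.06 in oocytes to -0.11 in eggs, 0.14 in late 1-cell, 0.47 in early 2-cell and 0.61 in late 2-cell embryos, while that of all genes stayed between 0.00 and 0.03.

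Without a weight for each stage in the fit, none of the 8 calls in oocytes, eggs and late 1-cell embryos passed (adjusted p = 0.0501 to 0.446). Scaling also moved the balance of calls over all genes: the share that was higher in knockouts was 28.1% in oocytes, 39.2% in eggs, 43.1% in late 1-cell, 46.0% in early 2-cell and 49.8% in late 2-cell embryos as deposited. In the same order it was 52.8%, 66.3%, 53.3%, 60.7% and 52.8% after centring libraries on their medians, and 26.8%, 45.6%, 52.3%, 61.2% and 61.5% with equal library totals. The median gene shifted by 0.11 in eggs under centring and by 0.12 in late 2-cell embryos under equal totals, so small differences in eggs are near that shift.

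**Figure D1:**
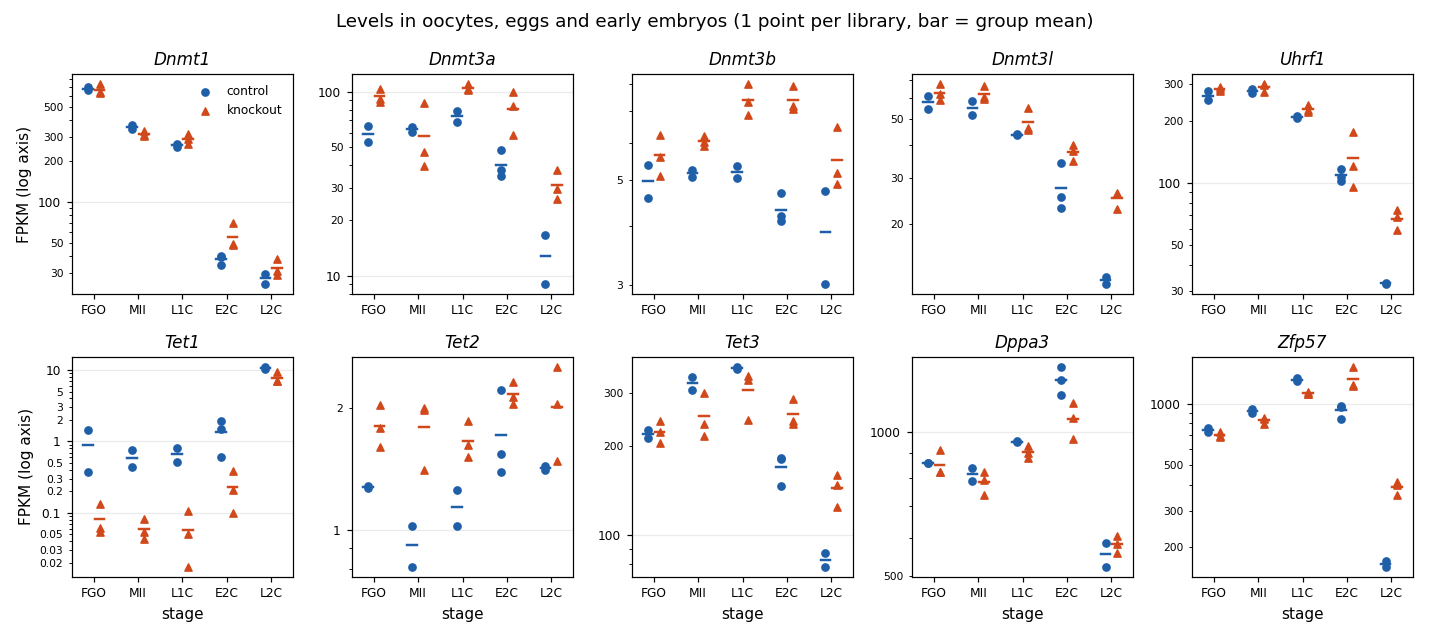
FPKM of the 10 genes (log axes, 1 panel per gene) by stage, FGO being oocytes, MII being eggs, and L1C, E2C and L2C being embryos of the late 1-cell, the early 2-cell and the late 2-cell stage, with 1 point per library (circles control, triangles knockout) and a bar at each group mean. Zfp57 at L2C lies between 161 and 171 in controls and between 358 and 417 in knockouts.

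Dnmt1, the maintenance methyltransferase (chr9:20907209-20959888, minus strand), was abundant in control oocytes at 702 and 665 FPKM and fell at each following step. The control libraries held 343 and 372 FPKM in eggs, 256 and 269 in late 1-cell, 34.5, 39.6 and 40.2 in early 2-cell, and 25.1 and 29.8 in late 2-cell embryos. The step from late 1-cell to early 2-cell was a 6.89-fold fall of the mean (log2 difference -2.76 ± 0.13, limma adjusted p = 2.29e-12), and over the whole course the mean fell 24.9-fold. The knockout followed nearly the same course, with 739, 652 and 631 FPKM in oocytes and 29.1, 31.1 and 38.1 in late 2-cell embryos. In early 2-cell knockout embryos, 48.4, 69.8 and 49.0 FPKM all lay above the 3 controls, and Dnmt1 was called higher there by 0.52 ± 0.16 (adjusted p = 0.0358). That call was lost without any 1 of 4 of the 6 libraries (adjusted p = 0.0555 to 0.201): control replicates 1, 2 and 3 and knockout replicate 2. It was also lost with no filter on low values (0.059) and with the stage fitted alone (0.0721), within a range of 0.00272 to 0.201 over its 13 alternatives.

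Uhrf1, the adaptor that recruits DNMT1 (chr17:56303321-56323486, plus strand), held its level in control oocytes and eggs (251 and 277, then 271 and 284 FPKM) and then declined to 205 and 210 in late 1-cell, 107, 117 and 102 in early 2-cell, and 32.5 and 32.8 FPKM in late 2-cell embryos. The last step was a 3.33-fold fall of the mean (-1.70 ± 0.16, adjusted p = 1.55e-08). Late 2-cell knockout embryos still held 59.1, 68.4 and 74.0 FPKM, all above both controls. The mean was 67.2 ± 7.52 (SD, n = 3) against 32.7 ± 0.217 (n = 2), 2.06-fold higher, and the difference was 1.01 ± 0.15 (adjusted p = 2.32e-05). It passed in all 12 alternatives, with adjusted p of at most 0.00195. At earlier stages no Uhrf1 difference passed, and the early 2-cell groups overlapped (107, 117 and 102 in controls, 95.6, 177 and 121 in knockouts). The genotype difference grew between the 2-cell stages by 0.79 ± 0.22 (limma interaction, adjusted p = 0.0128). This was lost with no filter (0.0744) and with those stages fitted alone (0.0644), within a range of 0.000351 to 0.0744 over 18 alternatives.

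Of the 50-base words in Uhrf1 exons, 15.4% occur in other genes, mainly the copy Gm5648. That copy was listed at a mean of 0.075 FPKM in late 2-cell controls and 0.205 in late 2-cell knockouts.

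Dnmt3a, the main methyltransferase of the growing oocyte (chr12:3806007-3914443, plus strand), was present at 65.1 and 53.5 FPKM in control oocytes, 60.6 and 64.3 in eggs, 68.8 and 78.2 in late 1-cell, 35.0, 48.0 and 37.5 in early 2-cell, and 16.6 and 9.06 FPKM in late 2-cell embryos. Every knockout library lay above every control library at each early stage except in eggs. Such an order was common among all genes at single stages, as given above, and was not counted over stages jointly. In oocytes the knockouts held 104, 88.5 and 91.5 FPKM, a difference of 0.67 ± 0.23 that missed the threshold (adjusted p = 0.0554). In eggs they held 46.8, 39.7 and 86.9 FPKM, on both sides of the controls. The knockouts held 110, 104 and 102 FPKM in late 1-cell and 58.2, 100 and 83.3 in early 2-cell embryos, where the differences of 0.52 ± 0.23 and 0.96 ± 0.40 did not pass (adjusted p = 0.141 and 0.119).

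In late 2-cell knockout embryos Dnmt3a stood at 26.2, 29.6 and 37.7 FPKM, above both controls, and was called 1.26 ± 0.38 higher (adjusted p = 0.0129), a 2.43-fold ratio of means. The call was lost without control replicate 2 (adjusted p = 0.205), without knockout replicate 3 (0.0649) and with no filter on low values (0.176), within a range of 0.000644 to 0.205 over 12 alternatives. Dnmt3aos, an antisense gene that shares 133 exonic bases with Dnmt3a, averaged under 1 FPKM in all 10 early groups.

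Dnmt3b, the de novo enzyme of the implanting embryo (chr2:153649450-153687730, plus strand), was scarce before implantation, with no called change between control stages. Control libraries held 5.37 and 5.06 FPKM in late 1-cell, 4.1, 4.69 and 4.2 in early 2-cell, and 4.74 and 3.02 in late 2-cell embryos. Knockout libraries held 7.34, 7.99 and 6.86, then 7.93, 7.08 and 7.2, then 4.92, 5.19 and 6.47 FPKM, above every control of the same stage. The differences were 0.43 ± 0.10 in late 1-cell (adjusted p = 0.00472), 0.66 ± 0.17 in early 2-cell (0.0143) and 0.44 ± 0.17 in late 2-cell embryos (0.0462).

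All of those Dnmt3b calls hung on single libraries. The late 1-cell call was lost without control replicate 2 (adjusted p = 0.0732; range 0.0019 to 0.0732 over 12 alternatives), and the early 2-cell call without control replicate 1 (0.0673) or knockout replicate 1 (0.0521; range 0.000434 to 0.0673 over 13). The late 2-cell call was lost without control replicate 2 (0.564), knockout replicate 2 (0.0667) or knockout replicate 3 (0.198), with no filter, with the stage alone and with a replicate block (range 0.0128 to 0.564 over 12), and its difference was 0.18 without control replicate 2 and 0.69 without control replicate 1. Dnmt3b shares 9.81% of its exonic 50-base words with the neighbouring gene Dnmt3c, which moved the other way in late 2-cell embryos, from a mean of 2.45 FPKM in controls to 1.0 in knockouts (-0.81 ± 0.24, adjusted p = 0.012).

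Dnmt3l, the cofactor of DNMT3A in oocytes (chr10:78041947-78063622, plus strand), fell in controls from 61.1 and 54.6 FPKM in oocytes and 51.6 and 58.6 in eggs to 43.8 and 43.4 in late 1-cell, 23.1, 25.3 and 34.1 in early 2-cell, and 12.6 and 11.9 FPKM in late 2-cell embryos. Late 2-cell knockout embryos held 22.8, 26.2 and 26.1 FPKM, with no overlap. The mean was 25 ± 1.91 (SD, n = 3) against 12.2 ± 0.463 (n = 2), 2.05-fold higher, and the difference was 0.97 ± 0.15 (adjusted p = 4.95e-05). It passed in all 12 alternatives, with adjusted p of at most 0.00357. In early 2-cell embryos the knockouts held 34.6, 40.0 and 37.7 FPKM, above all 3 controls, but the difference of 0.45 ± 0.16 did not pass (adjusted p = 0.0724). Before that the knockout means were 1.09 to 1.13 times those of controls and no difference passed.

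Tet1, an oxidising enzyme known from pluripotent cells and primordial germ cells (chr10:62804570-62908996, minus strand), was near the floor of these data in control oocytes (1.43 and 0.371 FPKM), eggs (0.442 and 0.747) and late 1-cell embryos (0.522 and 0.808). Knockout libraries were lower still: 0.0609, 0.134 and 0.0532 FPKM in oocytes, 0.0816, 0.0535 and 0.0431 in eggs, and 0.0176, 0.0503 and 0.106 in late 1-cell embryos. No groups overlapped, and the control means were 10.9, 10.0 and 11.5 times the knockout means. On the log2(FPKM + 1) scale the differences were -0.76 ± 0.17 (adjusted p = 0.00445), -0.58 ± 0.15 (0.0109) and -0.65 ± 0.18 (0.0126).

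These Tet1 calls were each lost without 1 control library: replicate 1 in oocytes (adjusted p = 0.251; range 8.55e-05 to 0.251 over 11 alternatives), replicate 2 in eggs (0.191; range 0.000258 to 0.191 over 11) and replicate 2 in late 1-cell embryos (0.177; range 0.000661 to 0.177 over 11). In oocytes the difference was -0.34 without control replicate 1 and -1.17 without control replicate 2, and the ratio of means was 4.48 and 17.3. In late 1-cell embryos the ratio was 19.6 without knockout replicate 3. The summed level of the 10 cumulus and granulosa markers was also lower in the knockouts at these stages: 9.16 to 10.2 FPKM in controls against 4.41 to 5.13 in oocytes, 5.81 to 7.34 against 2.44 to 3.01 in eggs, and 6.04 to 7.8 against 2.32 to 3.14 in late 1-cell embryos. The sum was lower in the knockouts at the 2-cell stages too. It was 5.46 to 6.89 against 2.18 to 2.7 FPKM in early 2-cell embryos. In late 2-cell embryos it was at least 10.9 in controls and at most 4.59 in knockouts. Of these markers Cyp19a1 and Kitl alone reached 1 FPKM in any oocyte, egg or late 1-cell library, and in eggs Foxl2, Amhr2, Inha and Inhbb were listed at 0 throughout. Over both genotypes Cyp19a1 held 1.52 to 6.72 FPKM in oocytes, 1.34 to 5.62 in eggs and 1.47 to 6.06 in late 1-cell embryos. In late 2-cell libraries Cyp19a1 was at most 0.751 FPKM and Amhr2 held 1.44 to 9.6. The part of the cumulus and granulosa markers in the Tet1 result was not tested.

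Tet1 was the 1 gene of the 10 that rose at the late 2-cell stage in controls, from 1.92, 0.608 and 1.51 to 11 and 10.2 FPKM (2.35 ± 0.31, adjusted p = 1.5e-06), a 7.86-fold rise of the mean. In the knockouts it went from 0.391, 0.206 and 0.0985 to 9.48, 7.05 and 6.95 FPKM. Those late 2-cell knockout libraries were all below both controls, but the difference of -0.40 ± 0.28 did not pass (adjusted p = 0.303), nor did that of -0.89 ± 0.30 at the early 2-cell stage (adjusted p = 0.0529).

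Tet2 (chr3:133463679-133545139, minus strand), which lacks the CXXC domain of its relatives, stayed between 0.81 and 2.52 FPKM in all early libraries. In eggs it stood at 1.02 and 0.81 FPKM in controls and 1.4, 1.98 and 2.0 in knockouts, without overlap, and was called 0.54 ± 0.11 higher (adjusted p = 0.00117). The call was lost without stage weights and with eggs fitted alone (adjusted p = 0.0719; range 0.000397 to 0.0719 over 12 alternatives). The knockout libraries were also all above the controls in oocytes, late 1-cell and late 2-cell embryos, where no difference passed (adjusted p = 0.115, 0.0871 and 0.269).

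Tet3, the oxidase stored in the egg that acts on the paternal genome (chr6:83362373-83459084, minus strand), rose in controls from 213 and 226 FPKM in oocytes to 308 and 341 in eggs, stood at 368 and 362 in late 1-cell embryos and then fell to 182, 180 and 146 in early 2-cell and 78.3 and 87.1 FPKM in late 2-cell embryos. In knockout eggs it was lower, at 216, 300 and 237 FPKM (-0.38 ± 0.12, adjusted p = 0.031), below both controls. By the late 2-cell stage the order had turned, with 148, 160 and 124 FPKM in knockouts, all above the controls (0.79 ± 0.22, adjusted p = 0.00805), a 1.74-fold ratio of means. The early 2-cell knockouts, at 242, 288 and 237 FPKM, were also above all controls, a difference of 0.59 ± 0.23 that did not pass (adjusted p = 0.0982).

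The Tet3 call in eggs was lost without control replicate 1, control replicate 2, knockout replicate 1 or knockout replicate 3 (adjusted p = 0.0647, 0.265, 0.156 and 0.0594), and under both rescalings (range 0.0041 to 0.265 over 12 alternatives). The late 2-cell call was lost without control replicate 1 (0.0779) and with no filter (0.121; range 0.000258 to 0.121 over 12). The rise from oocyte to egg in controls was lost without any 1 of the 4 libraries (adjusted p = 0.0539 to 0.159; range 0.00944 to 0.159 over 11).

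Dppa3, the maternal protein that keeps UHRF1 out of the oocyte nucleus (chr6:122626410-122630272, plus strand), did not differ between genotypes by the test at any stage. Control libraries held 860 and 859 FPKM in oocytes and knockouts 913, 822 and 825. In late 2-cell embryos the values were 586 and 522 against 605, 557 and 581 FPKM, a difference of 0.07 ± 0.10 (adjusted p = 0.667). Early 2-cell controls held 1192.6, 1363.6 and 1282.6 FPKM and knockouts 964, 1067.4 and 1148.1, without overlap, but the difference of -0.27 ± 0.11 did not pass (adjusted p = 0.11). Unlike Dnmt1 and Uhrf1, Dppa3 rose in controls from late 1-cell to early 2-cell embryos (0.42 ± 0.09, adjusted p = 0.000701), and it then fell 2.31-fold to the late 2-cell stage (-1.21 ± 0.11, adjusted p = 1.45e-08). Of its exonic 50-base words 16.5% occur in other genes, mainly Dppa3-ps, which stayed at 11.6 FPKM or less in every early library.

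Zfp57, the zinc-finger protein that guards imprinted methylation (chr17:37001163-37010635, plus strand), had the smallest adjusted p of the 10 genes at both 2-cell stages. Control libraries rose from 757 and 731 FPKM in oocytes to 944 and 904 in eggs and 1286.1 and 1327.3 in late 1-cell embryos, and then fell to 845, 963 and 977 in early 2-cell and 171 and 161 FPKM in late 2-cell embryos. The last step was a 5.59-fold fall of the mean (-2.47 ± 0.11, adjusted p = 2.06e-13). In the knockout the highest mean was at the early 2-cell stage (1316.5 FPKM, against 1121.5 in late 1-cell embryos), a step that was not tested within knockouts. Knockout libraries held 724, 699 and 684 FPKM in oocytes, 843, 792 and 847 in eggs, and 1112.8, 1139.3 and 1112.5 in late 1-cell embryos, below every control at each of these stages.

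Early 2-cell knockouts then held 1219.7, 1504.2 and 1225.7 FPKM and late 2-cell knockouts 358, 417 and 403, above every control at both stages. Zfp57 was 0.16 ± 0.05 lower in knockout eggs (adjusted p = 0.0426) and 0.22 ± 0.06 lower in late 1-cell embryos (0.0141), and then 0.50 ± 0.10 higher in early 2-cell (0.00248) and 1.24 ± 0.10 higher in late 2-cell embryos (1.23e-08). The late 2-cell mean was 393 ± 30.9 FPKM (SD, n = 3) against 166 ± 7.34 (n = 2), 2.37-fold higher. Both 2-cell calls passed in every alternative, 13 for the early stage with adjusted p of at most 0.0354 and 12 for the late stage with at most 0.000153.

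The change of sign was itself tested: the genotype difference rose by 0.72 ± 0.12 from late 1-cell to early 2-cell embryos (limma interaction, adjusted p = 0.00209) and by a further 0.74 ± 0.14 to late 2-cell embryos (adjusted p = 0.000928). The first missed the threshold with those stages fitted alone (0.0589, the highest of 18 alternatives, the lowest being 0.00167), and the second passed in all 18. The lower levels in eggs and late 1-cell embryos were weaker calls. They were lost under both rescalings (adjusted p = 0.162 and 0.563 in eggs, 0.0806 and 0.0541 in late 1-cell embryos). They were lost too without control replicate 1 (0.288 and 0.0595), without control replicate 2 (0.0931 and 0.146) and, in eggs, without knockout replicate 1 (0.0637) or 2 (0.19), within ranges of 0.0224 to 0.563 and 0.0155 to 0.155 over 12 alternatives each. No 50-base word of Zfp57 exons occurs in another gene.

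**Figure D2:**
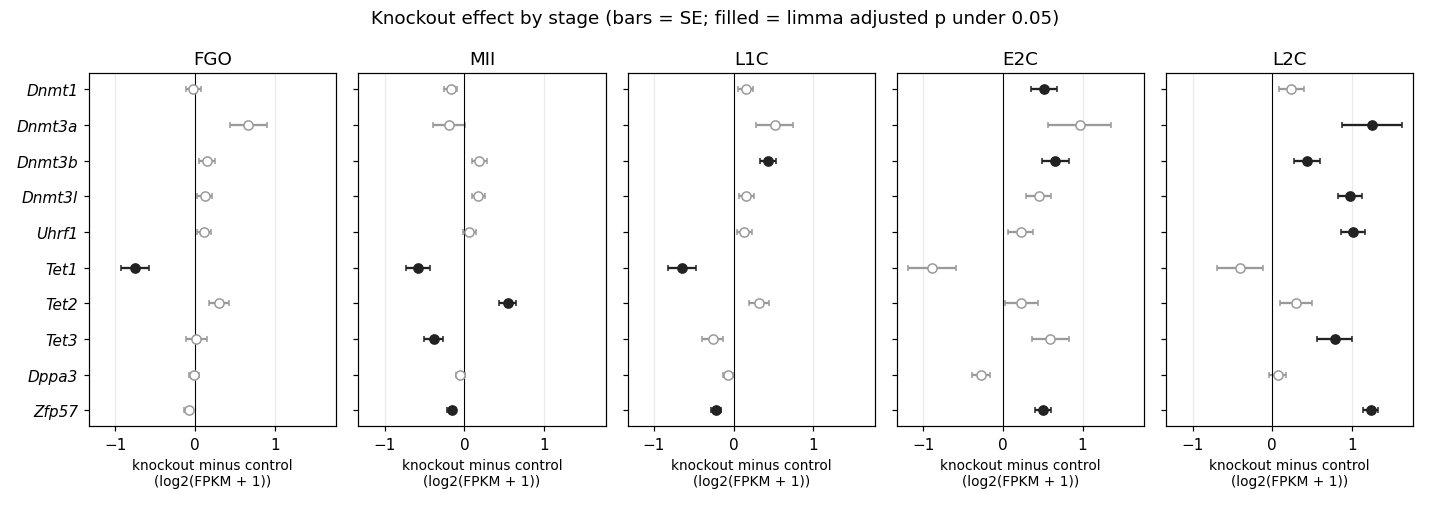
Knockout minus control on the log2(FPKM + 1) scale for each gene (rows) at each early stage (panels), with bars of 1 standard error and filled points for limma adjusted p under 0.05. Filled points lie on both sides of 0 in MII and L1C, and all 6 filled points in L2C lie to the right of 0.

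Across neighbouring stages the genotype difference changed by the test for 0 of the 10 genes from oocyte to egg and 0 from egg to late 1-cell embryo (limma interaction; 0.0% and 0.198% of all genes, the latter being 0.158% upward and 0.0395% downward, and at an unadjusted p under 0.05 there were 2 of the 10 genes in each, beside 1678 and 1904 of the 15184 genes). It changed for 1 gene from late 1-cell to early 2-cell (3.35% of all genes, 1.28% upward and 2.07% downward) and for 2 from early to late 2-cell embryos (18.9%, 9.55% upward and 9.37% downward), all 3 upward. These are the Zfp57 and Uhrf1 values above. For Dnmt3l the change between the 2-cell stages was 0.53 ± 0.22 and for Dppa3 0.34 ± 0.15, neither passing (adjusted p = 0.109 and 0.129).

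In controls 3 of the 10 genes changed from oocyte to egg, 2 up and 1 down (5.39% of all genes, 1.3% up and 4.1% down). From egg to late 1-cell 2 rose and 3 fell (25.4%, 9.6% up and 15.8% down), and from late 1-cell to early 2-cell 1 rose and 6 fell (47.2%, 18.1% up and 29.1% down). From early to late 2-cell embryos 8 changed (51.7%). At the last step 7 fell and 1 rose, where 22.5% of all genes fell and 29.2% rose. The steps and the late 2-cell knockout comparison share the late 2-cell control libraries, so they are set side by side and not related by a test. Some smaller control steps were lost without 1 library. These were the rise of Zfp57 from oocyte to egg (without oocyte replicate 2, adjusted p = 0.0572, or egg replicate 1, 0.0563; range 0.00202 to 0.161 over 11 alternatives) and the fall of Dnmt1 between the 2-cell stages (without early replicate 2 or 3 or late replicate 1, 0.0684, 0.0697 and 0.194; range 0.000436 to 0.194 over 12). From egg to late 1-cell embryo the calls of Dnmt3l and Dppa3 were each lost without 1 of 3 libraries (0.0787 to 0.179 and 0.0735 to 0.117). The libraries were both late 1-cell controls and, respectively, egg replicate 2 and egg replicate 1. The calls of Dnmt3a were lost without any 1 of 5 libraries from late 1-cell to early 2-cell (0.0553 to 0.146) and without late replicate 2 between the 2-cell stages (0.0513). The late 2-cell knockout mean lay between the control early and late 2-cell means for 8 of the 10 genes and for 53.8% of all genes tested. For Zfp57 it was 393 FPKM, between 928 and 166; for Uhrf1 67.2, between 109 and 32.7; for Dnmt3l 25, between 27.5 and 12.2; and for Tet1 7.83, between 1.35 and 10.6. Dnmt3b and Tet2 lay above both control means.

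**Figure D3:**
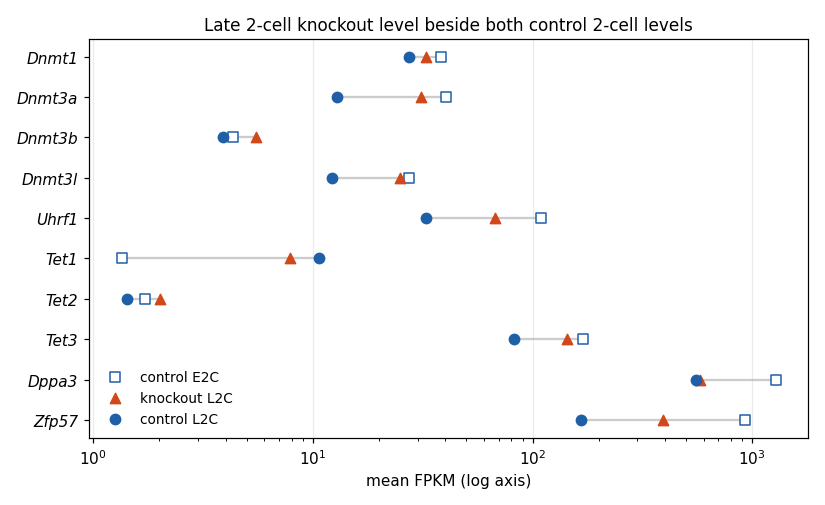
Mean FPKM (log axis) of each gene in control early 2-cell (open squares), knockout late 2-cell (triangles) and control late 2-cell libraries (filled circles), joined by a line. The triangle sits between the control points for 8 of the 10 genes, Dnmt3b and Tet2 being the others.

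Markers of oocytes and of the 2-cell stage also differed between genotypes in late 2-cell embryos. The summed level of the 8 oocyte markers was 478 to 504 FPKM in control and 778 to 907 in knockout late 2-cell libraries, and that of the 7 transient 2-cell markers was 148 to 163 against 365 to 467 FPKM. At the early 2-cell stage the oocyte markers overlapped (942.0 to 1243.5 against 875.0 to 1128.0 FPKM) and the 2-cell markers were lower in the knockouts (228 to 306 against 98.3 to 203 FPKM). By these sums late 2-cell knockouts thus lay between the early and late 2-cell controls for the oocyte markers, but above both for the 2-cell markers. Single 2-cell markers were not alike. Zscan4c and Zscan4d reached at most 33.5 and 44.8 FPKM in any late 2-cell library, against up to 60.7 and 60.1 in early 2-cell libraries. The other 2-cell markers had their highest value in a late 2-cell library. The part of the oocyte and 2-cell markers in the differences of the 10 genes was not tested.

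At embryonic day 6.5 the test found none of the 10 genes different between genotypes in epiblast, visceral endoderm or extraembryonic ectoderm (limma over 13914 genes in 11 libraries, 5 residual degrees of freedom). Among all genes 0.0%, 0.00719% and 0.0% were called. At an unadjusted p under 0.05 there were 1, 2 and 0 of the 10 genes and 469, 248 and 251 of all genes. The control extraembryonic ectoderm rests on 1 library, which the fit takes to vary like the other groups.

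Dnmt3l stood apart in level between genotypes without passing the test. It stood at 6.24 and 7.12 FPKM in control epiblast and 21.6 and 15.5 in knockout epiblast. In visceral endoderm it stood at 0.201 and 0.348 FPKM in controls and 4.62 and 0.843 in knockouts. Every knockout library lay above every control in both lineages, as was so for 14.7% of all genes in epiblast and 14.4% in visceral endoderm. The differences were 1.33 ± 0.49 and 1.34 ± 0.49 and did not pass (adjusted p = 1.0 for both; unadjusted 0.0221 and 0.0217). In extraembryonic ectoderm, where Dnmt3l is normally abundant, the control held 37.0 and the knockouts 32.5 and 41.6 FPKM. Elf5, a defining extraembryonic ectoderm marker, was at 0.0 FPKM in both control and 0.131 and 0.0279 in knockout epiblast libraries. In visceral endoderm it was at 0.0224 and 0.0 FPKM in controls and 0.381 and 0.238 in knockouts. All of these values were small beside the 135 to 184 FPKM in extraembryonic ectoderm. The 6 markers of extraembryonic ectoderm together came to 15.1 to 17.2 FPKM in control and 8.93 to 19 in knockout epiblast, and to 12.6 to 14.0 in control and 20.0 to 28.6 in knockout visceral endoderm. Most of these sums was Eomes, also listed as a primitive streak marker (6.7 to 15.4 FPKM in epiblast and 9.44 to 22.7 in visceral endoderm). In visceral endoderm Cdx2 held 0.769 to 3.72 FPKM and Bmp4 1.32 to 2.59, while Esrrb and Tfap2c were at most 0.0403 and 0.276. The 6 epiblast markers summed to 49.1 to 113 FPKM in control and 113 to 166 in knockout visceral endoderm. Most of that sum was Utf1 (39.0 to 120 FPKM) and Fgf5 (8.65 to 38.5), and Utf1 was also at 394 to 482 in extraembryonic ectoderm. Otx2 held 1.29 to 7.19 FPKM in visceral endoderm, and Sox2 and Nanog at most 0.192 and 0.44. Pou5f1, at 274 to 694 FPKM in epiblast, was at most 0.213 in control and 0.0 in both knockout visceral endoderm libraries. Their part in the Dnmt3l values was not tested.

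Dppa3 stood at 1.36 and 3.22 FPKM in control and 9.13 and 4.17 in knockout visceral endoderm, without overlap (1.20 ± 0.46, adjusted p = 1.0). Of the genes that differed in late 2-cell embryos, Zfp57 overlapped between genotypes here, with 1.07 and 3.34 FPKM in control epiblast and 0.596 and 2.14 in knockout epiblast. Uhrf1 did not overlap, at 45.3 and 27.6 against 50.4 and 54.1 FPKM in epiblast, but the difference of 0.55 ± 0.33 did not pass (adjusted p = 1.0). Y-linked transcripts summed to 25.9 to 68.0 FPKM in 6 libraries, the first control and the second knockout of all 3 lineages, and to 0 in the rest, so replicates of a group differed in the sex of their embryos. The 7 decidua and blood markers summed to 0.208 to 0.361 FPKM in control visceral endoderm, and to 0.0259 and 35.2 in the 2 knockout libraries. Most of the highest sum was Hba-a1 (up to 16.6 FPKM) and Hbb-bs (up to 15.6). Their part in the Dnmt3l and Dppa3 values was not tested.

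**Figure D4:**
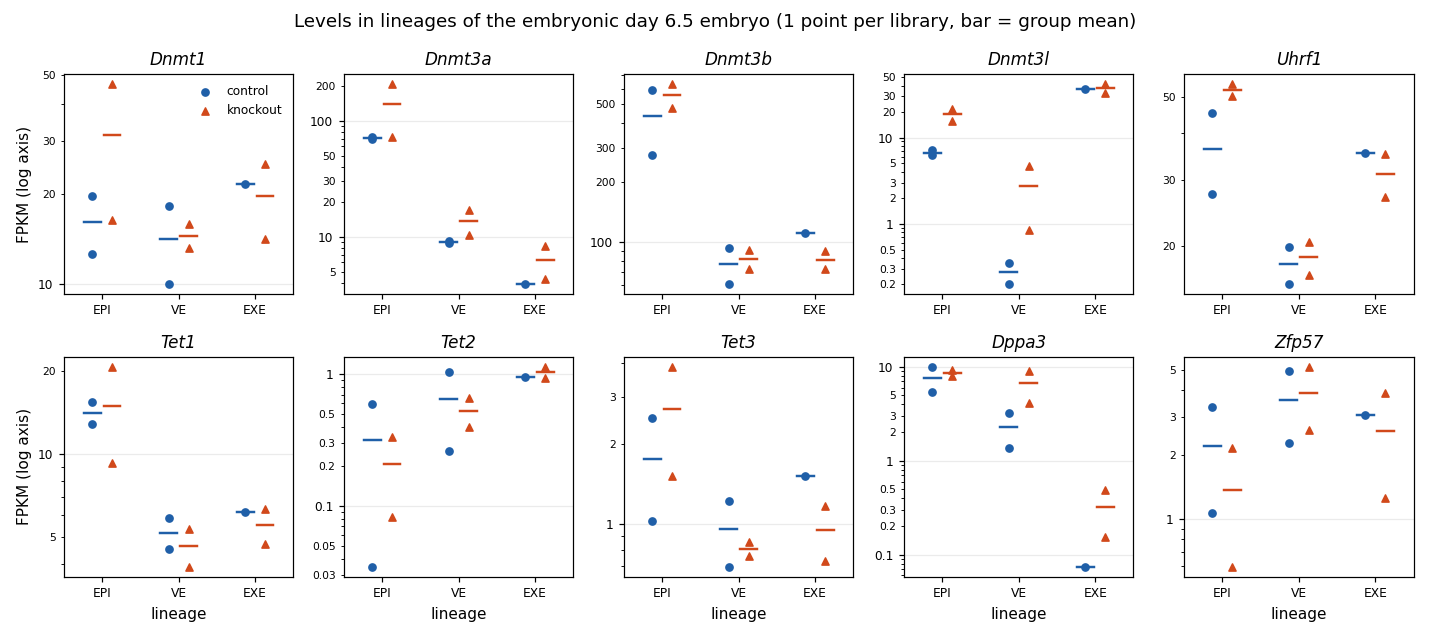
FPKM of the 10 genes (log axes, 1 panel per gene) in epiblast (EPI), visceral endoderm (VE) and extraembryonic ectoderm (EXE) libraries of embryonic day 6.5, with 1 point per library and a bar at each group mean. Dnmt3a and Dnmt3b are highest in EPI and Dnmt3l in EXE, where it lies between 32.5 and 41.6.

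Between lineages, with the genotypes averaged, 5 of the 10 genes differed between epiblast and visceral endoderm, all higher in epiblast, where 38.4% of all genes differed and 21.6% were higher in epiblast. Dnmt3b was the most abundant of the 10 genes in every lineage, at 277 to 632 FPKM in epiblast, 61.1 to 93.2 in visceral endoderm and 72.4 to 111 in extraembryonic ectoderm. Epiblast exceeded visceral endoderm 6.22-fold for Dnmt3b (2.58 ± 0.28, adjusted p = 9.13e-05) and 9.29-fold for Dnmt3a (2.98 ± 0.35, adjusted p = 0.000147). Dnmt3l (2.59 ± 0.35, adjusted p = 0.000321), Tet1 (1.36 ± 0.29, 0.00467) and Uhrf1 (1.20 ± 0.23, 0.00274) were also higher in epiblast, and all 5 passed in each of 15 alternatives.

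Extraembryonic ectoderm differed from epiblast for 5 genes (19.6% of all genes). Dnmt3l was higher there, 2.93-fold (1.64 ± 0.39, adjusted p = 0.015), while Dnmt3a was 19.0-fold lower (-4.00 ± 0.39, 0.000112), Dnmt3b 5.43-fold lower (-2.31 ± 0.31, 0.000736), Dppa3 lower by -2.92 ± 0.37 (0.000463) and Tet1 lower by -1.14 ± 0.32 (0.0337). The Dnmt3l call was lost without knockout extraembryonic ectoderm replicate 2 (0.0554; range 0.00857 to 0.0554 over 13 alternatives). The Tet1 call was lost without any 1 of 5 libraries, which were all but knockout epiblast replicate 2 among those left out in turn (range 0.0073 to 0.113 over 13). Against visceral endoderm, extraembryonic ectoderm differed for 3 genes (22.6% of all genes): Dnmt3l was 24.6-fold higher (4.23 ± 0.39, adjusted p = 4.44e-05; 79.7-fold and 4.63 without knockout visceral endoderm replicate 1), Uhrf1 higher by 0.83 ± 0.26 (0.0449) and Dppa3 lower by -2.01 ± 0.37 (0.00324). The Uhrf1 call was lost without any 1 of the 6 libraries left out in turn (adjusted p = 0.0612 to 0.153; range 0.0139 to 0.153 over 13). Dppa3-ps, the copy that shares sequence with Dppa3, was lower in extraembryonic ectoderm too. The limma differences were -2.64 ± 0.26 against epiblast (adjusted p = 0.000124) and -2.52 ± 0.26 against visceral endoderm (0.000106). Dppa3-ps averaged 6.17 FPKM in control and 5.97 in knockout epiblast, where Dppa3 averaged 7.66 and 8.62. Its part in the Dppa3 calls was not tested.

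By mean level, Dnmt3a thus ran epiblast, visceral endoderm, extraembryonic ectoderm (105, 11.3 and 5.53 FPKM), the last pair not differing by the test (adjusted p = 0.097). Dnmt3l ran extraembryonic ectoderm, epiblast, visceral endoderm (37.0, 12.6 and 1.5 FPKM). Tet3 and Zfp57, abundant in the egg, averaged 0.881 to 2.23 and 1.79 to 3.74 FPKM and did not differ between any lineages by the test.

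Around the 10 genes, 62 names of partners, readers, repair enzymes, donor enzymes and methylation-silenced germline genes were listed in 8 groups; 61 were measured, since Vprbp is the former name of Dcaf1, and 55 passed the filter in the early table. Knockout libraries were called higher and lower for 5 and 7 of these in oocytes, 7 and 9 in eggs, 8 and 13 in late 1-cell, 5 and 4 in early 2-cell, and 10 and 10 in late 2-cell embryos, and for 0 of 49 in each day 6.5 lineage. The background shares of higher and lower calls were 3.91% and 9.97% in oocytes, 6.57% and 10.2% in eggs, 7.6% and 10.0% in late 1-cell, 6.2% and 7.28% in early 2-cell, and 17.0% and 17.2% in late 2-cell embryos. The median difference of the listed genes was between -0.05 and -0.01 at each early stage.

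Among the 6 maintenance partners, Cdca7, which helps the remodeller HELLS, averaged 5.25 ± 0.371 FPKM in control and 1.87 ± 0.372 in knockout oocytes (-1.13 ± 0.19, adjusted p = 0.000214), and it was lower by -1.19 ± 0.19 in late 1-cell embryos (0.00014). Its relative Cdca7l was higher in knockouts, reaching 28.6 against 14.3 FPKM in early 2-cell embryos (0.98 ± 0.16, adjusted p = 0.000301). In late 2-cell embryos 2 of these 6 were called higher (Cdca7l and Hells) and 0 lower.

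Of the 6 genes that shape methylation in oocytes, Setd2 and Nsd1, which lay down the H3K36 methylation read by the DNMT3 enzymes, were called in opposite directions. Setd2 averaged 107 ± 6.52 FPKM in control and 44.4 ± 1.38 in knockout late 2-cell embryos (-1.26 ± 0.10, adjusted p = 1.82e-08). It was also lower in oocytes (-0.38 ± 0.06), eggs (-0.34 ± 0.06) and late 1-cell embryos (-0.35 ± 0.06). Nsd1 was higher in late 2-cell embryos by 0.81 ± 0.10 (adjusted p = 3.29e-06). Kdm1b, the H3K4 demethylase needed for maternal imprints, was lower in early 2-cell knockouts (40.0 against 60.4 FPKM, -0.58 ± 0.18, adjusted p = 0.0399) and higher in late 2-cell knockouts (29.5 against 17.9 FPKM, 0.69 ± 0.18, adjusted p = 0.00436).

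Among the 7 imprint protection partners, 2 were called higher and 3 lower in late 2-cell knockouts. Nlrp14 averaged 46.2 ± 8.42 FPKM in controls and 174 ± 14.0 in knockouts (1.90 ± 0.21, adjusted p = 8.88e-07). Zfp445, a zinc-finger partner of ZFP57 in imprint protection, was lower (15.2 against 7.76 FPKM, -0.90 ± 0.20, adjusted p = 0.00143), as was Trim28, the corepressor both recruit (-0.64 ± 0.17, adjusted p = 0.00486). Arid4a was lower in eggs (20.0 against 13.7 FPKM, -0.52 ± 0.09, adjusted p = 0.000361) and in early 2-cell embryos (14.3 against 9.46 FPKM, -0.55 ± 0.18, adjusted p = 0.0477).

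Of the 7 methyl-CpG readers 5 were tested. Mbd1 was lower in oocytes (5.28 ± 0.361 against 2.36 ± 0.625 FPKM, -0.92 ± 0.15, adjusted p = 0.000117) and in late 1-cell embryos (5.53 ± 0.17 against 2.03 ± 0.179 FPKM, -1.11 ± 0.15, adjusted p = 1.46e-05). Of 9 tested genes of removal and repair, Xrcc1, a scaffold of base excision repair, was higher in late 1-cell knockouts (8.59 against 4.16 FPKM, 0.88 ± 0.12, adjusted p = 1.74e-05), and 0 were called in late 2-cell embryos. Of 12 germline genes known to be silenced by promoter methylation, 2 were called higher and 2 lower in oocytes: Sycp3 (6.54 against 3.25 FPKM, -0.83 ± 0.23, adjusted p = 0.0209) and Mael were lower, and Dpep3 and Tex19.1 higher. In eggs Sycp3 (5.6 against 3.32 FPKM, -0.70 ± 0.21, adjusted p = 0.0237) and Mael (20.2 against 12.8 FPKM, -0.62 ± 0.15, adjusted p = 0.00627) were lower and Brdt (0.18 ± 0.05, adjusted p = 0.0126) and Tex19.1 (0.26 ± 0.08, 0.0396) higher. In late 2-cell embryos 2 were called higher (Brdt and Dazl) and 0 lower. The remaining groups, TET partners and donor enzymes, had 1 higher and 1 lower of 4, and 0 higher and 2 lower of 6, in late 2-cell embryos.

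As a description of pattern over the 26 early libraries, which share stages and a common total RNA protocol, the genes most like 9 of the 10 members among 8094 compared were found by Pearson correlation of log2(FPKM + 1). They were Cage1 and Mrps22 for Dnmt1 (r = 0.987 and 0.983), Oas1e and Nobox for Uhrf1 (0.99 each), Erich5 and Usp28 for Dnmt3a (0.928 and 0.925), and Fam13c and Add3 for Dnmt3l (0.975 each). For Zfp57 they were Pold3 and Copz1 (0.977 and 0.975), for Tet1 Pemt and Ccdc36 (0.977 and 0.973), for Tet3 Cyfip2 and Cnst (0.939 and 0.933), for Dppa3 Chmp5 and Sap30 (0.955 and 0.951), and for Dnmt3b Lrch1 and Arhgap44 (0.868 and 0.839). Tet2, under 5 FPKM in every early library, was left out. Among those 9 genes themselves Uhrf1 and Dnmt3l were closest (0.967), and Tet1 ran against Uhrf1 (-0.876) and Dnmt3a (-0.853).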

How the data were processed

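The deposited tables give FPKM per gene and library, made by the authors with Trim Galore 0.6.6, STAR 2.7.9 and StringTie 2.1.7 on mm10, per the submitters' processing notes; column headers end in rpkm. The total that FPKM was scaled to, the annotation and the use of strand in counting are not given in the sources used here. In the first control epiblast library, in FPKM like the others, Gm24888 was listed at -1e-06, which was set to 0. Low values did not fall on whole-read steps (17.5% to 32.4% within 0.05 of a step), so no counts were recovered and the depth per sample is unknown. All columns matched a sample, with 0 left over.

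Each table was fitted with limma 3.58.1 in R 4.3.3 on log2(FPKM + 1) with an intensity trend, after dropping every gene that reached 1 FPKM in fewer than 2 libraries. The early fit (26 libraries) had 1 weight per stage, from 0.4219 in early 2-cell embryos to 1.981 in eggs. The late fit (11 libraries) had no weights. The 20 comparisons were adjusted separately (Benjamini-Hochberg, two-sided). Levels were not compared by test between tables. The fit was run on simulated data with changes of at least 1 log2 unit in genes above 5 FPKM. That run does not cover smaller changes or genes near 1 FPKM. Of 55401 identifiers, 54349 are in GENCODE M21, used for positions; shared sequence was counted as exonic words of 50 bases. Alternatives were a pseudocount of 0.1, no filter, equal totals, median centring, other weights, separate fits, a replicate block and leaving out each library. Named genes beyond the 10 were, per knockout comparison, the 3 listed genes with the largest called difference and at least 5 FPKM in the higher group, and the 2 genes most like each member; other listed genes, Dnmt3c, Gm5648, Dnmt3aos, Dppa3-ps, Elf5 and Aire were named after their values were seen. The members and lists were chosen with earlier results of these data known.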

Additional observations from a re-analysis of the deposited data

Results flagged for a closer look

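The genotype difference of Zfp57 differed between late 1-cell and early 2-cell embryos by 0.72 ± 0.12 (limma interaction, log2(FPKM + 1) scale, adjusted p = 0.00209): all 3 knockout libraries were below both controls at the first stage and above all 3 controls at the second. It differed again between early and late 2-cell embryos by 0.74 ± 0.14 (adjusted p = 0.000928), with knockouts above controls at both stages. For Uhrf1 the same step gave 0.79 ± 0.22 (adjusted p = 0.0128), from overlapping groups to knockouts at 59.1 to 74.0 FPKM and controls at 32.5 to 32.8.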

How the results depend on the processing

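Of the 17 calls between genotypes, 4 passed under every alternative: Zfp57 in early 2-cell, and Zfp57, Uhrf1 and Dnmt3l in late 2-cell embryos. So did 1 of 3 differences between stages, 14 of 23 control changes and 10 of 13 lineage differences, and no result changed sign while called. The cause of the changes below was not tested. Without weights the genotype calls among the 10 genes were 0 in oocytes, 0 in eggs, 0 in late 1-cell and 8 in early 2-cell embryos, where the reported counts were 1, 4, 3 and 3 and that fit called 5.95%, 5.89%, 7.74% and 29.0% of all genes; the differences between stages were 2 for late 1-cell to early 2-cell and 4 for early to late 2-cell (reported 1 and 2; 4.68% and 30.4% of all genes), and control changes were 1 from oocyte to egg and 1 from egg to late 1-cell (reported 3 and 5; 1.38% and 10.9% of all genes). With stages fitted alone there were 0 calls in eggs, 0 for late 1-cell to early 2-cell and 1 for early to late 2-cell. In that fit Tet1 could not be tested in oocytes, eggs or late 1-cell embryos because it did not pass the filter. Centring gave 2 in oocytes and 3 control changes from egg to late 1-cell, and equal totals gave 2 in eggs. With no filter there were 3 in late 2-cell embryos, 1 for early to late 2-cell, and 3 between extraembryonic ectoderm and epiblast (reported 6, 2 and 5).

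Leaving out 1 library at a time, the genotype calls ranged from 0 to 1 in oocytes, 1 to 4 in eggs, 0 to 3 in late 1-cell, 1 to 3 in early 2-cell and 4 to 6 in late 2-cell embryos, and were 0 in each day 6.5 lineage and for the difference between epiblast and visceral endoderm. The differences between stages ranged from 0 to 1 for the first pair and 0 to 1 for the next, and stayed at 1 and 2 for the later pairs. Control changes ranged from 1 to 2, 3 to 4, 6 to 6 and 7 to 8 in stage order. Lineage differences were 5 to 7 for epiblast against visceral endoderm, 3 to 5 for extraembryonic ectoderm against epiblast and 2 to 2 against visceral endoderm. Without the lone control of extraembryonic ectoderm its genotype difference could not be fitted.

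Replicate numbers did not pair the early libraries (correlation of same-numbered deviations -0.077 to 0.142), and in epiblast and visceral endoderm, with 2 pairs each, the numbers are shared but no source ties them (0.587 and 0.424). With the replicate number as a block, 1 of the 10 genes was called for the difference between egg and late 1-cell embryo, against 0 without it. That gene was Dnmt3a (1.06, adjusted p = 0.0475). In all the block gained 7 calls and lost 8. It also gained the genotype differences of Dnmt3a in oocytes (0.69, 0.0103), eggs (-0.52, 0.00863), late 1-cell (0.54, 0.0231) and early 2-cell embryos (0.96, 0.0203), of Dnmt1 in eggs (-0.21, 0.049), and the lineage difference of Dppa3 between epiblast and visceral endoderm (0.91, 0.0339). It lost Tet1 in oocytes (0.0512) and late 1-cell embryos (0.0518), Zfp57 in late 1-cell embryos (0.0564), Dnmt3b in late 2-cell embryos (0.233), the control changes of Dnmt3a from late 1-cell to early 2-cell (0.0973) and of Dnmt1 between the 2-cell stages (0.0822), and extraembryonic ectoderm against epiblast for Tet1 (0.103) and against visceral endoderm for Uhrf1 (0.136).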

Other observations

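Aire, the gene next to Dnmt3l whose exons overlap it by 67 bases on the opposite strand, was looked at after its values were seen. It stood at a mean of 0.0883 FPKM in control epiblast and 2.17 in knockout epiblast, without overlap, where Dnmt3l went from 6.68 to 18.6 FPKM. The Aire difference of 1.53 ± 0.23 did not pass (limma adjusted p = 0.446). In visceral endoderm, where Dnmt3l was also higher in both knockout libraries, Aire was at 0.0 FPKM in controls and 0.00884 in knockouts. In late 2-cell embryos the Aire difference of 0.49 ± 0.29 did not pass (adjusted p = 0.207).

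Dppa3-ps, a copy that shares sequence with Dppa3, was higher in both knockout visceral endoderm libraries (3.01 and 3.95 FPKM in controls, 9.61 and 7.55 in knockouts) as Dppa3 itself was. The difference of 1.10 ± 0.33 did not pass (adjusted p = 1.0). In epiblast both genotypes were alike in level (6.21 and 6.14 against 5.64 and 6.3 FPKM). How reads were assigned between the copies is not given in the sources used here.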
